A study of Mus musculus with 4 samples.

Results

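The hippocampal RNA of 3 mouse knockouts was set against wild type (WT) as 3 against 1. The knockouts were Ogg1-/- (Ogg1 KO), Mutyh-/- (Mutyh KO) and the combined knockout, labelled Ogg-/- Mutyh-/- and named Ogg1_Mutyh_DKO in its title (DKO), against WT mice. All were C57BL/6 animals aged 6 months, and each of the 4 genotypes gave 1 library of total RNA, sequenced with standard Illumina chemistry. The labels give neither the number of animals behind a library nor their sex. The comparison asks which transcripts set WT apart from every library that lacks at least 1 of the glycosylases. Of 18492 genes listed with reads in any library, 13186 had a mean of at least 1 RPKM (reads scaled by gene length and library size) over the 4 libraries and were compared. A gene was taken into the set when WT lay outside the range of the 3 knockouts by at least 1.5-fold on the log2(RPKM + 1) scale. The set held 98 genes, of which 96 were listed in all 4 libraries. These values chose the genes, so their distance from WT is a description and not a test of the genotypes.

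Ogg1 and Mutyh are DNA glycosylases of base excision repair. OGG1 removes 8-oxoguanine, a common oxidation product of guanine, where it pairs with cytosine, and MUTYH removes adenine that was placed opposite 8-oxoguanine. The hippocampus itself is made of principal neurons, interneurons and glia, and it lies against the ventricle, where the choroid plexus secretes cerebrospinal fluid, and against the meninges.

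The libraries held 17.02 M (Ogg1 KO), 17.15 M (Mutyh KO), 18.20 M (DKO) and 18.12 M (WT) unique reads in genes (M, mega). Ribosomal RNA genes took 0.352% (Ogg1 KO), 1.37% (Mutyh KO), 1.48% (DKO) and 0.734% (WT) of these reads. Ogg1 had 130, 81 and 103 reads in Ogg1 KO, Mutyh KO and DKO, against 94 in WT, but reads covered only 47.2% and 46.4% of its length in Ogg1 KO and DKO, against 81.5% in Mutyh KO and 86.7% in WT. Mutyh, under the limit of 1 RPKM, was covered over 18.4% and 27.7% of its length in Mutyh KO and DKO, against 57.1% in Ogg1 KO and 55.9% in WT. The covered stretch was thus short in the libraries labelled as lacking each gene, while the read total of Ogg1 was not low there. The library labelled Mutyh KO stood apart in sex-linked genes: Xist, the transcript that silences an X chromosome, had 23, 10307 and 29 reads in Ogg1 KO, Mutyh KO and DKO, against 14 in WT. The Y-linked helicase Ddx3y had 724, 289 and 884 reads in Ogg1 KO, Mutyh KO and DKO, against 816 in WT, so transcripts of both kinds were present in Mutyh KO. Counts are therefore also given below without that library.

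The set was almost all on the higher side. In 95 genes all 3 knockouts lay above WT by at least 1.5-fold, which is 0.72% of the genes compared, and in 3 genes all 3 lay below WT, which is 0.0228%. By any amount, all 3 knockouts lay above WT in 4050 genes (30.7%) and below WT in 3410 (25.9%), and the median difference between the knockout mean and WT over all genes was 0.01 on the log2 scale. Without the Mutyh KO library, 98 genes were higher and 15 lower by 1.5-fold or more. Leaving out a knockout can only keep or widen the set, so these counts do not test its members. Of the 95 higher genes, 38 lay at least 2-fold above WT in every knockout. For 91 of them the exact 95% interval of the read ratio between the nearest knockout and WT excluded 1, an interval that covers counting error only. The limit of 1.5-fold is 0.585 on the log2 scale. Just inside it on the higher side were Slc16a6, Slc16a12 and Bmp7 at 0.587, 0.588 and 0.592, and just outside were Lepr, Bmp4 and Slc22a8 at 0.583, 0.581 and 0.580. On the lower side Dok3, Cml5 and Hist1h2be lay just outside, with distances of 1.48-fold, 1.46-fold and 1.44-fold.

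The knockouts did not form a tight group in most of the higher genes. The range from the lowest to the highest knockout had a median of 0.62 on the log2 scale, with quartiles of 0.33 and 0.94, against a median of 0.16 over all genes compared. The distance to WT was at least as large as the knockout range in 76 of the 95 genes, against 2419 of all 13186 genes in either direction, and choosing genes by a distance of at least 0.585 favours such a count. The range was under 0.2 in 15 of the 95, against 8174 of the 13186. The smallest range was 0.03, for Igsf9b, and the largest 1.99, for Prlr. In the 3 lower genes the range was 0.12 to 1.01.

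**Figure D1:**
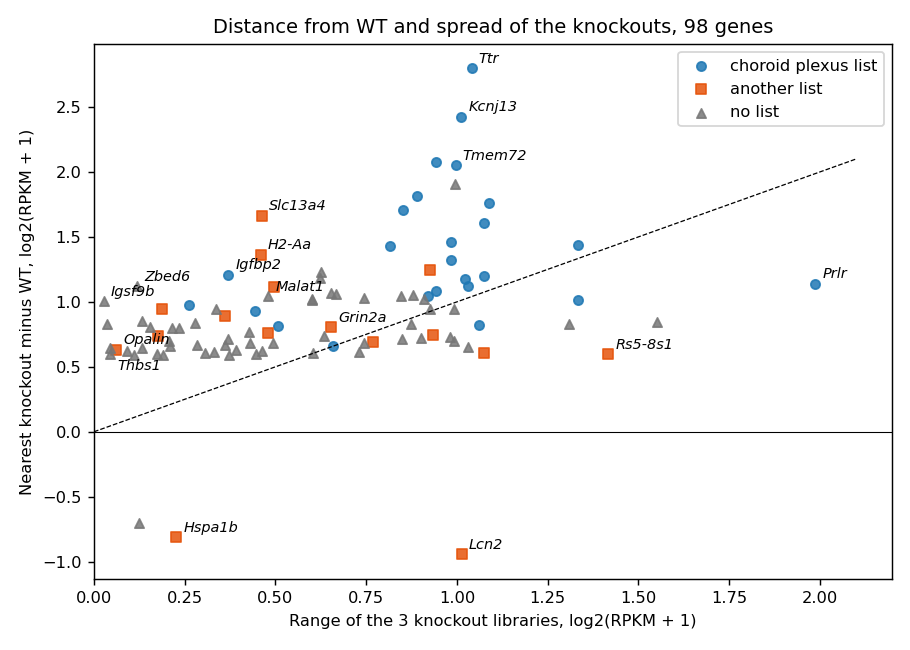
Each point is 1 of the 98 genes, with the range of the 3 knockout libraries on the horizontal axis and the nearest knockout minus WT on the vertical axis, both on the log2(RPKM + 1) scale. Points above the dashed line lie farther from WT than the knockouts lie from each other; choroid plexus genes sit mostly at ranges near 1, while Zbed6, Igsf9b, Opalin and Thbs1 sit at ranges under 0.2.

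A test across all genes asked whether WT lay outside the spread of the 3 knockouts taken as 1 group. That spread, which gives 2 residual degrees of freedom, comes from different genotypes and not from replicates, and the lone WT library is assumed to vary like them. The rule that chose the set used the same libraries, so a call for a gene of the set is no separate support for it. By edgeR's quasi-likelihood test with Benjamini-Hochberg adjustment, 6 genes (0.0455%) rose in the knockouts and 0 (0%) fell, with 887 higher and 429 lower at an unadjusted p under 0.05. The 6 genes were Zbed6, Igfbp2, Ptprt, Igsf9b, Slc13a4 and Ttr, all of them among the 95. The count depended on which knockouts entered: without Ogg1 KO it was 15 higher and 1 lower, without Mutyh KO 132 and 14, and without DKO 126 and 2. All 6 genes were called in each of these fits. When all listed genes entered the fit, Zbed6 was called (adjusted p = 0.0406) and the other 5 were not (0.0510 to 0.0561). DESeq2 on the same reads called 114 higher (0.865%) and 5 lower (0.0379%), of which 58 and 1 belong to the set. For a single gene tested alone, 3 against 1 allows no exact permutation p below 0.25.

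Choroid plexus genes lay farthest from WT. Ttr, transthyretin, the thyroid hormone carrier that this epithelium secretes, had 2274, 2169 and 1105 RPKM in Ogg1 KO, Mutyh KO and DKO, against 158 RPKM in WT. Every knockout was far above WT and the DKO was the lowest of the 3. The log2(RPKM + 1) of Ttr averaged 10.78 over the knockouts, with a range of 1.04, against 7.31 in WT. The read ratios to WT were 14.4-fold (95% interval 13.9 to 14.9) in Ogg1 KO, 13.7-fold (13.3 to 14.2) in Mutyh KO and 6.99-fold (6.75 to 7.24) in DKO, and Ttr rose by edgeR's quasi-likelihood test (log2 ratio 3.54, SE 0.40, adjusted p = 0.0418).

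The ion channel Kcnj13 followed, with 24.3, 29.7 and 14.3 RPKM in Ogg1 KO, Mutyh KO and DKO, against 1.84 RPKM in WT. The folate receptor Folr1, which moves folate into the fluid, had 13.6, 16.4 and 8.05 RPKM in those knockouts, against 1.14 RPKM in WT. In both genes the DKO was the lowest knockout and WT, by the choice of the set, lay below all 3. Tmem72, a membrane protein gene, had 522, 235 and 258 reads in Ogg1 KO, Mutyh KO and DKO, against 14 in WT, and here Ogg1 KO alone was high among the knockouts. Enpp2, autotaxin, which makes lysophosphatidic acid, had 512, 538 and 290 RPKM in Ogg1 KO, Mutyh KO and DKO, against 81.7 RPKM in WT. Its nearest knockout, the DKO, was 3.55-fold (3.44 to 3.66) above WT in reads.

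Leaving out the clone-named gene 1500015O10Rik, with 330, 368 and 188 reads in Ogg1 KO, Mutyh KO and DKO, against 38 in WT, the next genes by distance were coagulation factor F5, the tight junction gene Cldn2, the sulphate transporter Slc13a4, the bicarbonate transporter Slc4a5, angiotensin converting enzyme Ace, the potassium channel subunit Kcne2 and the water channel Aqp1. Cldn2 had 8.09, 8.51 and 4.26 RPKM in Ogg1 KO, Mutyh KO and DKO, against 0.609 RPKM in WT. Aqp1 had 6.04, 6.40 and 3.20 RPKM in Ogg1 KO, Mutyh KO and DKO, against 0.56 RPKM in WT. Both show the same order, with Ogg1 KO and Mutyh KO close together, DKO below them and WT lowest.

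**Figure D2:**
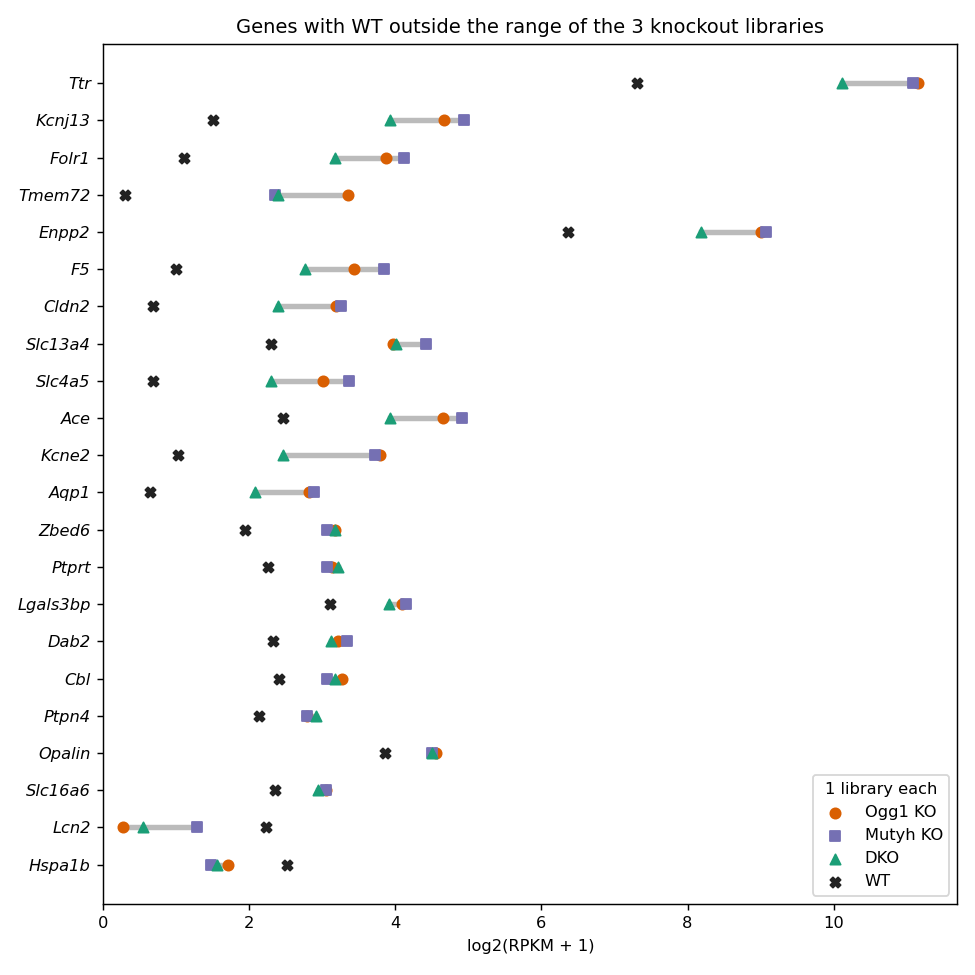
Each row is a gene and each symbol the log2(RPKM + 1) of 1 library, with a grey bar over the range of the 3 knockouts. Ttr to Aqp1 are the 12 genes farthest above WT, clone names left out, with the DKO usually the lowest knockout; Zbed6 to Slc16a6 are the 8 tightest among genes averaging at least 5 RPKM; Lcn2 and Hspa1b are the named genes below WT.

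Of 27 choroid plexus genes compared, 25 were in the higher set and in all 27 every knockout lay above WT, with a median knockout mean 1.88 above WT on the log2 scale, against 0.01 over all genes. DESeq2 called 18 of them and edgeR 2, Ttr and Igfbp2. The potassium chloride cotransporter Slc12a7 lay below the limit of 1.5-fold, with 192, 280 and 236 reads in Ogg1 KO, Mutyh KO and DKO, against 160 in WT. Together the listed genes took 0.565%, 0.592% and 0.305% of the reads in Ogg1 KO, Mutyh KO and DKO, against 0.0750% in WT. Ttr and Enpp2 made up most of each of these sums, while the median above weighs every gene alike. In bulk tissue, fewer cells of a type and less RNA per cell cannot be told apart, so these sums do not say which of them differed.

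Within the choroid plexus group the knockouts differed widely among themselves. The median knockout range of the 25 higher genes was 0.98 on the log2 scale, against 0.45 in the 56 higher genes that belong to no list. The DKO was the lowest knockout in 24 of the 25, and the DKO lay a median of 0.86 below the mean of the single knockouts. The exception was Tmem72, where Mutyh KO was marginally the lowest. The prolactin receptor Prlr had the widest spread of the whole set, with 9.04, 20.8 and 4.49 RPKM in Ogg1 KO, Mutyh KO and DKO, against 1.49 RPKM in WT. Mutyh KO was the highest knockout there, and edgeR did not call the gene (adjusted p = 0.273, quasi-likelihood test with Benjamini-Hochberg adjustment). The tightest members were Steap1 and Igfbp2, with ranges of 0.26 and 0.37. Igfbp2, an insulin-like growth factor binding protein, had 47.6, 53.5 and 41.2 RPKM in Ogg1 KO, Mutyh KO and DKO, against 17.3 RPKM in WT. It rose by the edgeR quasi-likelihood test (log2 ratio 1.45, SE 0.15, adjusted p = 0.0364).

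Genes of the meninges were also higher than in WT. Of 21 meningeal genes compared, 5 were in the higher set, and every knockout lay above WT in 18 and below it in 0 (median knockout mean 0.59 above WT). Over all genes compared, 0.72% were in the higher set, and every knockout lay above WT in 30.7% and below it in 25.9%. The sulphate transporter Slc13a4, expressed in the meninges, had 14.6, 20.5 and 15.1 RPKM in Ogg1 KO, Mutyh KO and DKO, against 3.91 RPKM in WT. It rose by edgeR's quasi-likelihood test (log2 ratio 2.09, SE 0.21, adjusted p = 0.0364). The growth factor Igf2 had 79.0, 114.3 and 59.7 RPKM in Ogg1 KO, Mutyh KO and DKO, against 24.6 RPKM in WT.

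The other meningeal members of the set were Bmp6, a bone morphogenetic protein, Fmod, a collagen-binding proteoglycan, and Aldh1a2, which makes retinoic acid. Aldh1a2 had 4.98, 6.39 and 9.20 RPKM in Ogg1 KO, Mutyh KO and DKO, against 2.71 RPKM in WT, and Fmod had 521, 589 and 797 reads in those knockouts, against 307 in WT. In both the DKO was the highest knockout, the reverse of its place in the choroid plexus group. The summed meningeal list took 0.0648%, 0.0868% and 0.0678% of the reads in Ogg1 KO, Mutyh KO and DKO, against 0.0324% in WT. Not every meningeal gene lay apart: Dcn, Lum and Slc47a1 had WT inside the knockout range.

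Among 6 blood genes compared, the haemoglobin genes Hba-a2 and Hbb-b1 were in the set. Every knockout lay above WT in 5 of the 6 and below it in 1, against 30.7% and 25.9% of all genes. The summed blood list took 0.0224%, 0.0287% and 0.0229% of the reads in Ogg1 KO, Mutyh KO and DKO, against 0.0221% in WT. Its sum in Ogg1 KO and DKO was thus close to WT. Hba-a2 had 11.0, 17.9 and 8.89 RPKM in Ogg1 KO, Mutyh KO and DKO, against 4.89 RPKM in WT. These globin genes have near-identical copies, so their unique reads are uncertain, and they were covered over no more than 33.7% of their length. Endothelial genes had 0 of 16 in the set and pericyte and smooth muscle genes 0 of 11, against 0.72% of all genes in the higher set. Every knockout nonetheless lay above WT in 11 of the 16 and 7 of the 11, and below it in 2 and 0. All genes had 30.7% above and 25.9% below. The medians of the 2 lists were 0.15 and 0.28 above WT. Of 12 ependymal genes only Calml4, which also stands in the choroid plexus list, was in the set. Every knockout lay above WT in 7 of the 12 and below it in 0, against 30.7% and 25.9% of all genes, with a median of 0.37. Dnahc6, a dynein heavy chain gene of cilia, lay just under the limit with 304, 351 and 433 reads in Ogg1 KO, Mutyh KO and DKO, against 143 in WT, a distance of 0.57 on the log2 scale, and DESeq2 called it higher (adjusted p = 2.8e-05).

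Outside the choroid plexus list the order of the knockouts varied more, though part of the same lean remained. In the 56 higher genes in no list, the DKO was the lowest knockout in 31 and the highest in 11. Mutyh KO was the highest knockout in 33 of them. Over the 95 higher genes, the DKO was the lowest knockout in 59, the highest in 18 and between the single knockouts in 18, and Mutyh KO was the highest in 59. Over all genes compared, the DKO was the lowest knockout in 4876 of 13186 and the highest in 3718, and Mutyh KO was the highest in 4460. In the 59 genes with the DKO lowest, it lay a median of 0.66 below the mean of the single knockouts, and 24 of these genes were from the choroid plexus list. In the 18 genes with the DKO highest, it lay a median of 0.28 above that mean, and 0 were from that list.

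Several genes of the set kept the 3 knockouts close together. Zbed6, which encodes a DNA-binding repressor of Igf2, had 681, 630 and 734 reads in Ogg1 KO, Mutyh KO and DKO, against 257 in WT. The knockouts spanned 0.12 on the log2 scale and the nearest was 1.12 above WT. Zbed6 had the lowest adjusted p of all genes by edgeR's quasi-likelihood test with Benjamini-Hochberg adjustment (log2 ratio 1.45, SE 0.12, adjusted p = 0.0244). The gene lies inside the host gene Zc3h11a, for which WT lay inside the knockout range, with 36.3, 33.4 and 35.0 RPKM in Ogg1 KO, Mutyh KO and DKO, against 35.6 RPKM in WT.

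Igsf9b, an adhesion molecule of inhibitory synapses, had 231, 227 and 246 reads in Ogg1 KO, Mutyh KO and DKO, against 81 in WT. This was the tightest gene of the higher set, with a knockout range of 0.03, and the read ratios to WT were 3.04-fold (2.35 to 3.96), 2.96-fold (2.29 to 3.87) and 3.02-fold (2.34 to 3.94) in Ogg1 KO, Mutyh KO and DKO. Ptprt, a receptor tyrosine phosphatase of neurons, had 853, 812 and 972 reads in Ogg1 KO, Mutyh KO and DKO, against 441 in WT. Both genes rose by edgeR's quasi-likelihood test, Igsf9b with a log2 ratio of 1.58 and Ptprt with 1.04, each at an adjusted p of 0.0364.

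Zbed6 and Ptprt were among the 8 tightest genes averaging at least 5 RPKM, while Igsf9b averaged less. The others of the 8 were Lgals3bp, a secreted galectin ligand, Dab2, an endocytic adaptor, Cbl, a ubiquitin ligase, and 3 more. These were Ptpn4, a tyrosine phosphatase, Slc16a6, a monocarboxylate transporter family member, and Opalin, a myelin protein. Without Zbed6 and Ptprt, the knockout ranges were 0.06 to 0.24 and the distances to WT 0.59 to 0.80. Dab2 had 634, 702 and 631 reads in Ogg1 KO, Mutyh KO and DKO, against 327 in WT, and just missed the edgeR threshold (adjusted p = 0.0608, quasi-likelihood test with Benjamini-Hochberg adjustment). Opalin had 22.5, 21.6 and 21.6 RPKM in Ogg1 KO, Mutyh KO and DKO, against 13.6 RPKM in WT, and was the single member among 16 oligodendrocyte genes.

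A further group of higher genes is named here after its values were seen, because the genes act in neurons or in the nucleus. Malat1, a nuclear non-coding RNA, had 307, 316 and 428 RPKM in Ogg1 KO, Mutyh KO and DKO, against 148 RPKM in WT. Cdr1 had 27.4, 36.9 and 51.0 RPKM in Ogg1 KO, Mutyh KO and DKO, against 15.0 RPKM in WT, but its locus also gives an abundant circular antisense RNA, and no source used here gives the strand of the reads. Both genes had the DKO highest, and neither was called by edgeR. Lnpep, an aminopeptidase, had 382, 389 and 516 reads in Ogg1 KO, Mutyh KO and DKO, against 186 in WT, and the neuregulin receptor Erbb4 had 183, 227 and 255 in those knockouts, against 94 in WT.

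Grin2a, the GluN2A subunit of NMDA receptors, was the single member among 22 glutamate receptor genes. It had 7.51, 8.62 and 12.4 RPKM in Ogg1 KO, Mutyh KO and DKO, against 3.87 RPKM in WT, and edgeR did not call it (adjusted p = 0.145, quasi-likelihood test with Benjamini-Hochberg adjustment). Grin1, the obligate subunit, had 150.0, 169 and 171 RPKM in Ogg1 KO, Mutyh KO and DKO, against 179 RPKM in WT. For Grin2b, WT lay inside a wide knockout range, with 9.06, 18.1 and 23.6 RPKM in Ogg1 KO, Mutyh KO and DKO, against 17.0 RPKM in WT. The list as a whole had every knockout above WT in 6 genes (27.3%) and below it in 8 (36.4%), with a median of -0.04. Over all genes these shares were 30.7% and 25.9%.

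Immune genes of antigen presentation formed another group above WT. Antigen presenting cells load peptides on MHC class II molecules, and Cd74, the invariant chain, guides these through the cell. H2-Aa, a class II alpha chain, had 84, 73 and 114 reads in Ogg1 KO, Mutyh KO and DKO, against 18 in WT. H2-Eb1, a class II beta chain, had 63, 61 and 78 reads in Ogg1 KO, Mutyh KO and DKO, against 19 in WT. Cd74 had 246, 176 and 274 reads in Ogg1 KO, Mutyh KO and DKO, against 72 in WT. The rule that chose these genes places WT outside the knockouts. The knockouts spanned 0.46, 0.19 and 0.50 on the log2 scale for H2-Aa, H2-Eb1 and Cd74.

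H2-Ab1, the partner chain of H2-Aa, lay just under the limit with 70, 59 and 89 reads in Ogg1 KO, Mutyh KO and DKO, against 35 in WT. For H2-DMa, which helps to load peptides, WT lay inside the knockout range, with 8.67, 11.3 and 9.93 RPKM in Ogg1 KO, Mutyh KO and DKO, against 11.0 RPKM in WT. Over the 6 class II genes compared, 3 were in the set and the median knockout mean was 0.89 above WT. By DESeq2, H2-Aa and Cd74 passed the threshold, and by edgeR's quasi-likelihood test none did (adjusted p = 0.0736 for both). Read totals this low bound the precision: the H2-Aa ratio in Mutyh KO was 4.29-fold with an interval of 2.53 to 7.63.

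H2-Aa and H2-Eb1 are also close neighbours on chromosome 17 in the RefSeq gene order. Their promoters are shown because both genes lie above WT in every knockout. Each runs from 250 bases before to 50 after the start in RefSeq's table on GRCm38.p6, with capitals marking a CCAAT box on either strand (CCAAT, or ATTGG on the other strand). The H2-Aa stretch is chr17:34287774-34288073 on the minus strand and the H2-Eb1 stretch chr17:34305617-34305916 on the plus strand.
H2-Aa: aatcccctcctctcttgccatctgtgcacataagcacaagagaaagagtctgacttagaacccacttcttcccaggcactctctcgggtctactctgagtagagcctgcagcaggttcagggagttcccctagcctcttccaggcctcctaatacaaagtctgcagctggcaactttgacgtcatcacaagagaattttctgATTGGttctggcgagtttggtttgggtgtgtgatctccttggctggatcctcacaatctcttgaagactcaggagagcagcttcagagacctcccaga
H2-Eb1: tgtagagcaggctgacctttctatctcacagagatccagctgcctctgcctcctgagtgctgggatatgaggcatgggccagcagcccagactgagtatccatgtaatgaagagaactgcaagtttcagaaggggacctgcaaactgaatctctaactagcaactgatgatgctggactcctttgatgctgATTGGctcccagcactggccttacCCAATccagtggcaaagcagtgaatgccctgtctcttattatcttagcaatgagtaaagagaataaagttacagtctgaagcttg
The box starts 48 bases before the start in H2-Aa, and 59 and 35 bases before it in H2-Eb1. It was present in all 4 class II promoters of the table and in 18 of the 69 higher genes with a promoter there. The share was 37.4% of all 32851 promoters and 42.7% of the 10442 genes compared that had a promoter. A match of these letters is a description of the sequence and not evidence of binding.

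MHC class I and interferon genes lay above WT by less. Every knockout lay above WT in 8 of 10 class I genes and in 13 of 17 interferon-response genes, against 30.7% of all genes. Every knockout lay below WT in 1 and 0 of them, against 25.9% of all genes. The medians were 0.26 and 0.26, and 0 of either list reached 1.5-fold. H2-K1, a class I heavy chain, had 15.3, 15.2 and 17.1 RPKM in Ogg1 KO, Mutyh KO and DKO, against 10.4 RPKM in WT. Ifitm2, an interferon-induced membrane protein, had 13.7, 15.4 and 13.4 RPKM in those knockouts, against 9.48 RPKM in WT. Of 14 microglial genes, 4 (28.6%) had every knockout above WT and 2 (14.3%) below it, with a median of 0.02. The microglial share above WT was thus near that of all genes. None of these list members passed edgeR's quasi-likelihood test after adjustment. The choroid plexus and meningeal sums were higher in the same libraries, and their part in the values of the immune genes was not tested.

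Only 3 genes lay below WT in all 3 knockouts by at least 1.5-fold. Lcn2, lipocalin 2, an iron-siderophore binding protein of inflammation, had 3, 21 and 7 reads in Ogg1 KO, Mutyh KO and DKO, against 57 in WT. The read ratios were 0.056 (0.0112 to 0.172), 0.389 (0.224 to 0.652) and 0.122 (0.047 to 0.269) in Ogg1 KO, Mutyh KO and DKO, so the knockouts varied widely although each was below WT. The unnamed gene with ID 436049 had 5, 6 and 6 reads in Ogg1 KO, Mutyh KO and DKO, against 14 in WT, and each of its intervals included 1. The inflammation list had no other member in the set. Its next was Pglyrp1, a peptidoglycan recognition protein, with 5.95, 6.68 and 4.03 RPKM in Ogg1 KO, Mutyh KO and DKO, against 8.35 RPKM in WT.

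Hspa1b, an inducible cytosolic HSP70 chaperone, was the lower gene with the most reads. It had 108, 86 and 99 reads in Ogg1 KO, Mutyh KO and DKO, against 240 in WT, with a knockout range of 0.23. The read ratios to WT were 0.479 (0.378 to 0.603), 0.379 (0.292 to 0.486) and 0.411 (0.322 to 0.521) in Ogg1 KO, Mutyh KO and DKO. DESeq2 called it lower (adjusted p = 0.0123) and edgeR's quasi-likelihood test did not (log2 ratio -1.25, SE 0.18, adjusted p = 0.0733). The edgeR test called it lower without Mutyh KO (adjusted p = 0.00356) and without DKO (0.0234), but not without Ogg1 KO (0.0516). Its near copy Hspa1a had 77, 69 and 91 reads in Ogg1 KO, Mutyh KO and DKO, against 130 in WT. These copies share most of their sequence, reads covered no more than 47.4% of either, and the split of reads between them is therefore uncertain.

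Most genes of the wider chaperone families were also lower than in WT, by smaller amounts. Of 22 cytosolic heat shock genes, every knockout lay below WT in 18 and above it in 1, with a median of -0.21, against 0.01 over all genes and 25.9% of all genes below WT. Hspa8, the constitutive HSP70, had 936, 942 and 921 RPKM in Ogg1 KO, Mutyh KO and DKO, against 1113 RPKM in WT, with a knockout range of 0.03. The small heat shock protein Hspb1 had 9.33, 8.30 and 7.34 RPKM in Ogg1 KO, Mutyh KO and DKO, against 12.7 RPKM in WT. The cochaperone Dnajb1 had 807, 723 and 747 reads in Ogg1 KO, Mutyh KO and DKO, against 1041 in WT. In each of these genes WT was the highest library. The list summed to 0.639%, 0.640% and 0.642% of the reads in Ogg1 KO, Mutyh KO and DKO, against 0.738% in WT. The exception above WT was Bag3, a cochaperone, by 0.09 on the log2 scale.

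Of 27 endoplasmic reticulum (ER) chaperone and unfolded protein response genes, every knockout lay below WT in 19 and above it in 2, with a median of -0.13. Over all genes these shares were 25.9% below and 30.7% above. Hspa5, the ER chaperone BiP, had 3523, 3812 and 3869 reads in Ogg1 KO, Mutyh KO and DKO, against 5631 in WT. Its read ratios to WT were 0.666 (0.638 to 0.695), 0.715 (0.686 to 0.745) and 0.684 (0.656 to 0.713) in Ogg1 KO, Mutyh KO and DKO, so the knockouts lay close together below WT. DESeq2 called it lower (adjusted p = 1.8e-05) and edgeR's quasi-likelihood test did not (log2 ratio -0.54, SE 0.08, adjusted p = 0.0733). As for Hspa1b, the edgeR call was made without Mutyh KO (adjusted p = 0.00207) and without DKO (0.0262), and not without Ogg1 KO (0.0678).

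Sdf2l1, a BiP cofactor, had 97, 116 and 102 reads in Ogg1 KO, Mutyh KO and DKO, against 181 in WT. Creld2 had 178, 187 and 175 reads in Ogg1 KO, Mutyh KO and DKO, against 276 in WT, and Manf, a secreted ER stress protein, had 585, 609 and 595 in those knockouts, against 859 in WT. In each of them the knockouts lay together below WT. Ddit3 and Chac1, which mark the branch of the response that leads to cell death, had WT inside the knockout range: Ddit3 had 15.0, 14.7 and 14.2 RPKM in Ogg1 KO, Mutyh KO and DKO, against 14.7 RPKM in WT. The summed list took 0.294%, 0.298% and 0.287% of the reads in Ogg1 KO, Mutyh KO and DKO, against 0.334% in WT. The medians of both chaperone lists stayed below 0 under trimmed mean (TMM) and median-of-ratios scaling.

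**Figure D3:**
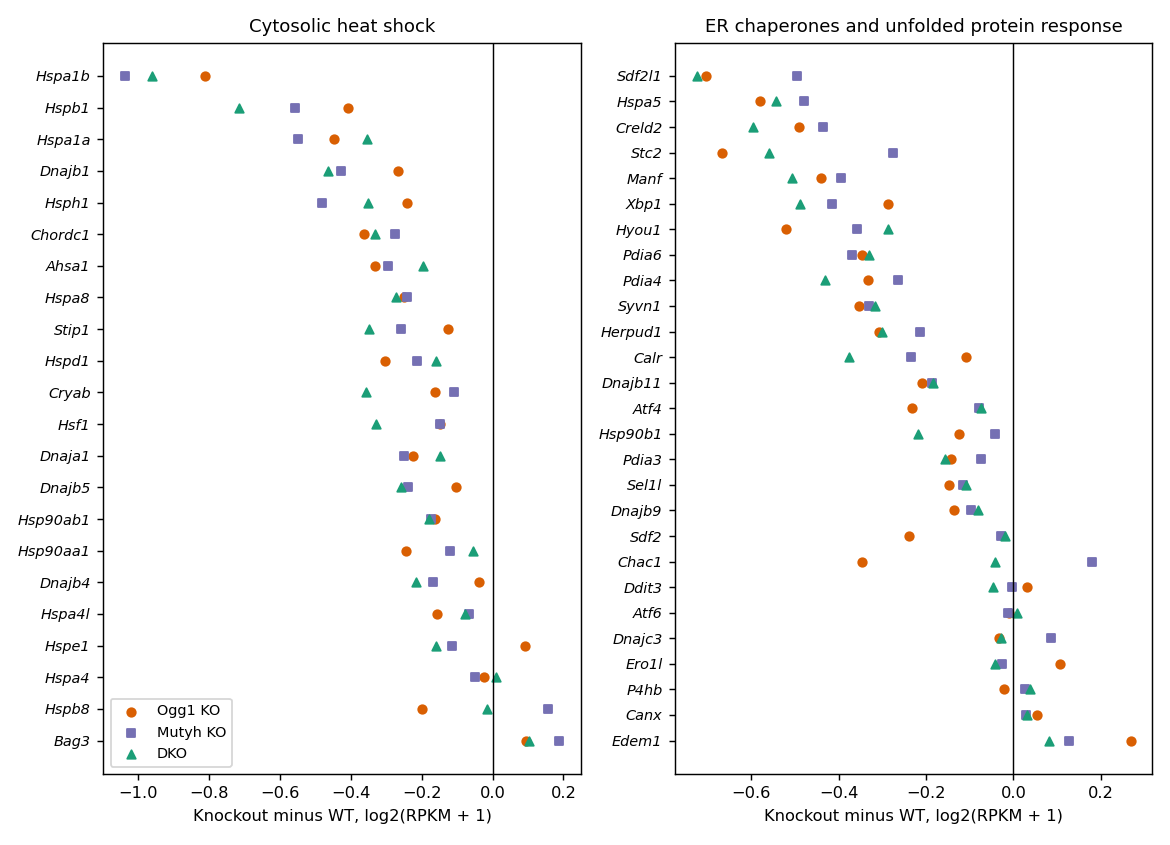
Each row is a gene and each symbol 1 knockout library minus WT on the log2(RPKM + 1) scale, for cytosolic heat shock genes (left) and ER chaperone and unfolded protein response genes (right). Most symbols sit left of the line at 0; Hspa1b is the farthest, with the nearest knockout 0.81 below WT, and Bag3, Canx and Edem1 sit right of it in all 3 knockouts.

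The promoters of 3 of these genes are shown because each holds the element of its pathway. RefSeq's GRCm38.p6 table was searched on both strands for a heat shock element, GAA and TTC in either order with 2 free bases between them, and for the ER stress response element, CCAAT and CCACG with 9 free bases between them. The stretches are chr17:34959189-34959488 on the minus strand for Hspa1b, chr2:34771840-34772139 on the plus strand for Hspa5 and chr15:88819396-88819695 on the plus strand for Creld2, and capitals mark the element.
Hspa1b: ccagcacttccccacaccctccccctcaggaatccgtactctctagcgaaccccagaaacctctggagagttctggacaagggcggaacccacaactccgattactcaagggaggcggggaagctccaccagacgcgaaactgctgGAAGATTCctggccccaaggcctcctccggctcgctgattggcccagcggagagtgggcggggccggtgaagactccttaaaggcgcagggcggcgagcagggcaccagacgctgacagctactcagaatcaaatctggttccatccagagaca
Hspa5: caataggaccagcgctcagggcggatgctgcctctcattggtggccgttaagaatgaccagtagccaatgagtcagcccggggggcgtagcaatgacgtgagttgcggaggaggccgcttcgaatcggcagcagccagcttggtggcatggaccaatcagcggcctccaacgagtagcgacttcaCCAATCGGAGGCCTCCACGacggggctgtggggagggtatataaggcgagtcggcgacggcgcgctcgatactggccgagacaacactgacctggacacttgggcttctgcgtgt
Creld2: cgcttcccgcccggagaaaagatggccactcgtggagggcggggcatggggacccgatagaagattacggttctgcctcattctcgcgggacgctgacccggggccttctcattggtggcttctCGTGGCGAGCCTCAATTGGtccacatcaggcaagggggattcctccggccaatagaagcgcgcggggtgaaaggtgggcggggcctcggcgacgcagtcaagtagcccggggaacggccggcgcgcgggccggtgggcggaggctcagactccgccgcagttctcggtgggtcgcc
The element starts 104 bases before the start in Hspa1b, 65 before it in Hspa5 and 126 before it, on the other strand, in Creld2. The heat shock element was found in 11 of 17 heat shock promoters, in 0 of 24 ER promoters and in 15.1% of all promoters. The ER stress response element was found in 8 of 24 ER promoters, in 0 of 17 heat shock promoters and in 0.119% of all promoters. The ER element contains a CCAAT box, which 21 of the 24 ER promoters held. Among the 10442 genes compared that had a promoter, 42.7% held a CCAAT box, 13.7% the heat shock element and 0.163% the ER element. The promoters of Hspa1b and Hspa1a were identical at 296 of 300 bases.

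A list of genes that mark the hippocampus itself was slightly lower than in WT. Of its 12 genes, every knockout lay below WT in 9 and above it in 0, against 25.9% and 30.7% of all genes. The list had a median of -0.19, and none of its genes reached 1.5-fold. Camk2a, the kinase of synaptic plasticity, had 1033, 1038 and 1035 RPKM in Ogg1 KO, Mutyh KO and DKO, against 1135 RPKM in WT. Spink8, a marker of CA1 neurons, had 10.3, 10.5 and 11.0 RPKM in Ogg1 KO, Mutyh KO and DKO, against 14.0 RPKM in WT. The list summed to 0.769%, 0.774% and 0.774% of the reads in Ogg1 KO, Mutyh KO and DKO, against 0.852% in WT, so the 3 knockouts were close to each other and below WT. Nrgn, another marker of forebrain principal neurons, had 976, 977 and 919 RPKM in Ogg1 KO, Mutyh KO and DKO, against 1044 RPKM in WT. The separate lists of hippocampal neurons had medians nearer to WT. Of 14 dentate gyrus genes, every knockout lay below WT in 2 and above it in 2, with a median of -0.01. Of 16 CA pyramidal genes, every knockout lay below WT in 7 and above it in 3, with a median of -0.04. The choroid plexus and meningeal sums were higher in the same 3 libraries, and the part of this makeup in the chaperone values was not tested.

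**Figure D4:**
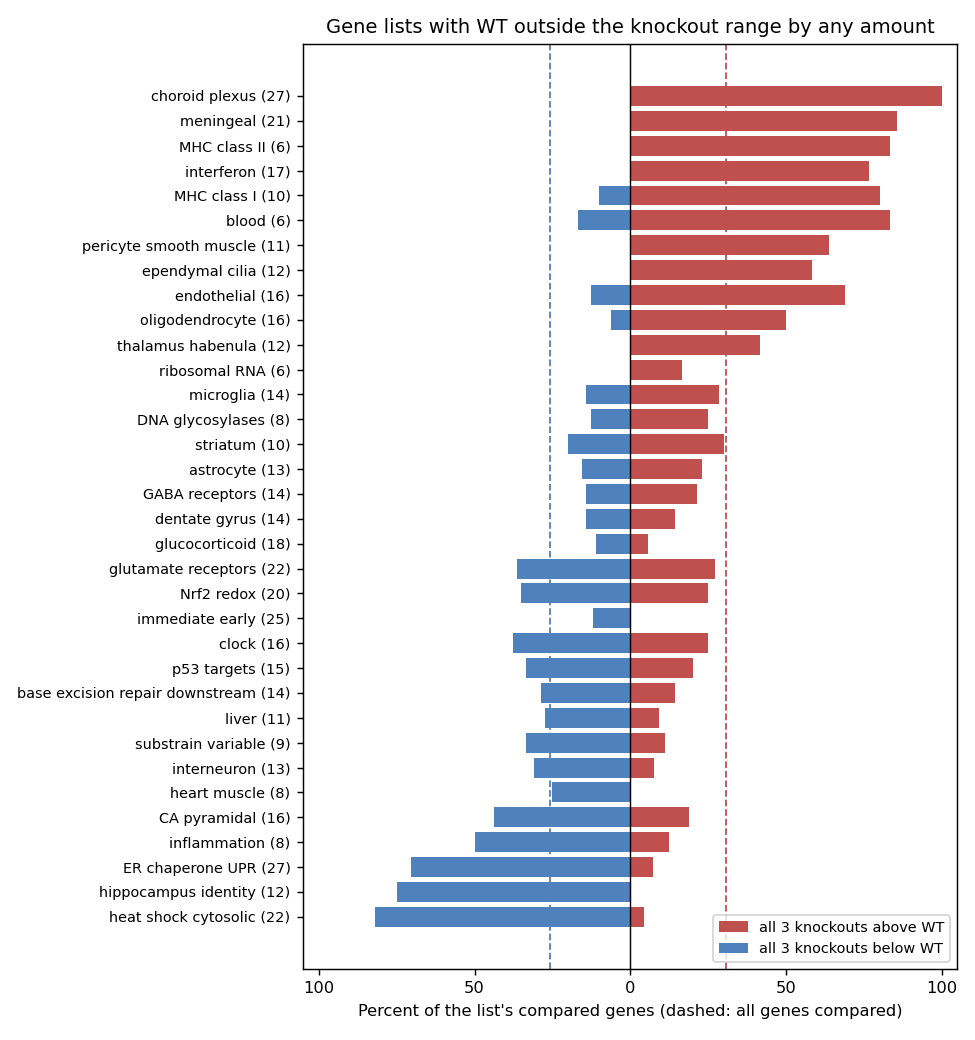
Each row is a gene list with the number of its genes compared; bars to the right give the percent of genes with all 3 knockouts above WT and bars to the left the percent with all 3 below WT, by any amount. Dashed lines mark all genes compared, at 30.7% above and 25.9% below; choroid plexus genes reach 100% above, and heat shock genes 81.8% below.

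Lists tied to the deleted genes and to oxidative damage are given beside the shares of all genes, 30.7% above WT and 25.9% below it. Of 8 DNA glycosylase genes, Ogg1 included, 2 had every knockout above WT and 1 below it, with a median of 0.04, and of 14 downstream base excision repair genes 2 lay above and 4 below, with a median of -0.03. The strand break sensor Parp1 had 26.9, 26.9 and 28.3 RPKM in Ogg1 KO, Mutyh KO and DKO, against 30.0 RPKM in WT. Among 15 p53 targets only Perp, a desmosomal membrane protein, was in the set, with 128, 150 and 156 reads in Ogg1 KO, Mutyh KO and DKO, against 68 in WT. Perp did not pass edgeR's quasi-likelihood test after adjustment (adjusted p = 0.109), and Cdkn1a, the main p53 target, had 5.19, 5.09 and 3.35 RPKM in Ogg1 KO, Mutyh KO and DKO, against 4.42 RPKM in WT. Of 20 Nrf2 and redox genes 5 lay above and 7 below, and of 25 immediate early genes 0 (0%) lay above and 3 (12%) below. The median knockout range of the immediate early genes was 0.51 on the log2 scale, against 0.16 over all genes. None of these genes but Perp lay 1.5-fold from WT in all knockouts, and 0 of the genes within 5 places of Ogg1 or Mutyh in the RefSeq order did. Camk1, next to Ogg1, had 160, 503 and 155 reads in Ogg1 KO, Mutyh KO and DKO, against 510 in WT, so it was low in both libraries labelled as lacking Ogg1, while Mutyh KO lay close to WT.

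The remaining lists had few genes in the set. Dentate gyrus, CA pyramidal, interneuron, astrocyte, thalamus and habenula, striatum, GABA receptor, glucocorticoid and clock lists had 0. Of all genes compared, 0.72% were in the higher set and 0.0228% in the lower, so a 0 in lists this short says little. Of 12 thalamus and habenula genes, every knockout lay above WT in 5 and below it in 0, with a median of 0.25. Over all genes these shares were 30.7% and 25.9%. A liver list was carried as a check of other tissue: Ttr, which the liver also makes, was its only member in the set, and without it the list summed to 0.0277%, 0.0358% and 0.0329% of the reads in Ogg1 KO, Mutyh KO and DKO, against 0.0337% in WT. These sums hide a difference between the knockouts. Alb, albumin, had 0, 723 and 761 reads in Ogg1 KO, Mutyh KO and DKO, against 752 in WT, and Ahsg, a secreted liver glycoprotein, had 0, 37 and 47 in those knockouts, against 44 in WT. A heart muscle list, also with 0 in the set, took 0.00184%, 0.00538% and 0.00480% of the reads in Ogg1 KO, Mutyh KO and DKO, against 0.00455% in WT, and its cardiac actin gene Actc1 had 0, 150 and 144 reads in those knockouts, against 128 in WT. For these 3 genes Ogg1 KO was the library at 0. Other members of the 2 lists did not share this. Apoa1 of the liver list had 165, 46 and 52 reads in Ogg1 KO, Mutyh KO and DKO, against 67 in WT. Acta1 of the heart muscle list had 82, 87 and 98 in those knockouts, against 101 in WT. Among the ribosomal RNA genes, Rs5-8s1 was in the set with 61, 117 and 179 reads in Ogg1 KO, Mutyh KO and DKO, against 42 in WT. Its knockouts spanned 1.42 on the log2 scale, in an order that follows the ribosomal share of the libraries among the knockouts.

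Of the 56 higher genes in no list, examples are named here after their values were seen. Matrix and secreted products included Sulf1, Pcolce, Sema3b, Angptl2, Col8a2, Col9a3, Col18a1, A2m, Lbp, Tgfbi and Thbs1. Sulf1, which trims sulphates from heparan sulphate, had 939, 1016 and 670 reads in Ogg1 KO, Mutyh KO and DKO, against 236 in WT. Thbs1, thrombospondin 1, had 128, 136 and 139 reads in those knockouts, against 54 in WT, with a range of 0.04. A2m, alpha-2-macroglobulin, had 314, 1081 and 344 reads in Ogg1 KO, Mutyh KO and DKO, against 149 in WT, so Mutyh KO alone was high among the knockouts. Membrane and epithelial genes included the calcium channel Trpv4, with 334, 385 and 190 reads in Ogg1 KO, Mutyh KO and DKO, against 63 in WT, and Krt18, Spint2, Crb3, Cgnl1, Slc2a12 and Steap2.

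By the component terms that the authors deposited beside each gene, 22 of the 95 higher genes (23.2%) carried an extracellular term, against 3.75% of all genes compared. A synaptic term was carried by 1 (1.05%), against 3.19%. Median gene length was 2846 bases in the higher set, against 2888 over all genes. Other neighbours in the set were Steap2 and Steap1, adjacent in the RefSeq order, Aldh1a2 and Cgnl1, 2 places apart, and Zbed6 and Fmod and Kcne2 and Clic6, each 3 places apart. The small RNAs Snora41, with 4, 2 and 3 reads in Ogg1 KO, Mutyh KO and DKO, against 0 in WT, and Mir425, with 3, 3 and 1 reads in those knockouts, against 0 in WT, were the members not listed in WT. Their counts are at or near the floor of 3 reads, and no fold is given for them.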

How the data were processed

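Total RNA of mouse hippocampus was sequenced as 1 library per genotype. The authors deposited 1 table per library, each listing genes with a count of unique reads, a gene length in bases, a percent of the length covered and an RPKM value, per the file headers. RPKM equalled reads over length and library total. The build was mm9, per the submitters' processing notes; no source used here names the aligner, the counting program or the strand. Genes not listed in a library were taken as 0. Rows with no symbol held 0.0179% to 0.0195% of reads and were kept under their IDs.

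The genes compared averaged at least 1 RPKM, and distances used log2(RPKM + 1), which understates differences of low genes. Read ratios are per library total with exact conditional 95% intervals, which cover counting error only; the floor for a count of 0 was 3 reads. Read counts of the 3 knockouts as 1 group against WT were tested with edgeR 4.0.16 (quasi-likelihood, TMM, Benjamini-Hochberg, 0.05, over all 13186 genes), with DESeq2 1.42.0 as an alternative, in R 4.3.3. The SE beside an edgeR log2 ratio is the size of that ratio over the square root of the test's F statistic. The scripts were tested on simulated data. With 1 library per genotype, p-values measure only the spread between these libraries, which may be technical.

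The members, 37 gene lists and settings were chosen with earlier results of these data known. Named genes were the 12 farthest from WT per direction (clone names left out), list members past 1.5-fold or else the farthest of a list, the 8 tightest per direction averaging at least 5 RPKM, the 3 on either side of the limit, the deleted genes and sex-linked genes; other names are examples of a list or were chosen after their values were seen. RefSeq IDs matched 13147 of the 13186 genes. RefSeq promoters (GRCm38.p6) were used for sequence only, since the files' build differs.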

Additional observations from a re-analysis of the deposited data

How the results depend on the processing

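Of the 95 genes above WT, 63 were left with a pseudocount of 2 RPKM, 56 with a mean of at least 5 RPKM, 38 with a gap of 2-fold and 63 without listed markers of adjoining or foreign tissue and sex-linked genes, a setting added after the data were seen. TMM and median-of-ratios factors gave 93 and 91. The 3 genes below WT became 6 with a pseudocount of 0.5 RPKM, 25 with all listed genes, and 0 with a mean of at least 5 RPKM or a gap of 2-fold, where no knockout range exists. Leaving out a knockout library gave 98 to 151 genes above and 8 to 15 below, since fewer libraries can only widen the set, and median ranges of 0.16 to 0.34 above and 0.0045 to 0.12 below. The median range of the genes below, 0.23, was 0.40 with a pseudocount of 2 RPKM, 0 with all listed genes and 0.62 where intervals exclude 1. By edgeR's quasi-likelihood test with Benjamini-Hochberg adjustment 6 genes were higher and 0 lower; with all listed genes 1 was higher, DESeq2 gave 114 and 5, and leaving out a library gave 15 to 132 higher and 1 to 14 lower. The cause was not tested. Of 357 distances of 51 named genes under the alternatives, 29 moved and 0 reversed. A move means a shift beyond the exact counting interval of the read ratio between the nearest knockout and WT. No paired analysis was possible because each genotype has 1 library. With 1 WT library, a difference between animals and one between genotypes cannot be told apart, and genes with few reads, such as Lcn2, H2-Eb1 and gene ID 436049, are limited by counting error.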
